A study of Homo sapiens with 6 samples.

Results

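The 10 genes described here are WNT2, WNT5A and WNT5B, which encode WNT ligands, WLS, the carrier that takes WNT proteins to the cell surface, the secreted inhibitors DKK1, DKK3 and SFRP1, the receptor FZD7, and AXIN2 and WISP1, known as genes that WNT signalling can switch on. They are 10 of the 63129 genes listed in the expression table. They were chosen by name from what was already known of their values in the same comparison, Ras-induced against control mitotic cells, so their levels and fold changes in that comparison are given as a description, without a p-value. Where one of them is said to pass the threshold of the fit across all genes, that too is a description and no support for the choice. The libraries were made from IMR90 cells, primary human lung fibroblasts, carrying a retroviral construct for ER-H-RasV12, an oncogenic Ras joined to the hormone-binding part of the estrogen receptor (ERRAS cells), which tamoxifen switches on. There were 3 libraries from uninduced cells (control mitotic cells) and 3 from cells induced for 4 days with 100 nM tamoxifen (Ras-induced mitotic cells). All 6 cultures, controls included, carried the construct and were arrested with 1 µM DME (Dimethylenastron), a blocker of the spindle motor Eg5, and the loose cells, over 90% of them in mitosis, were collected. No control culture received tamoxifen as far as the labels say, so the drug and active Ras cannot be told apart, and every value describes cells held in mitosis.

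WNT proteins are lipid-modified in the endoplasmic reticulum by PORCN, handed to WLS and carried to the cell surface. Outside the cell they bind Frizzled (FZD) receptors, together with LRP5 or LRP6 where the signal runs through β-catenin, or with ROR and RYK receptors in pathways that do not need β-catenin. WNT5A and WNT5B are mostly known for the latter in fibroblasts. SFRP proteins hold WNT ligands away from their receptors and DKK1 blocks LRP5 and LRP6, while DKK3 is a related secreted protein whose action on WNT signalling is less clear. AXIN2, a scaffold of the complex that destroys β-catenin, is a common readout of β-catenin signalling.

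Levels are in FPKM (fragments counted on a gene, scaled by transcript length and by sequencing depth), so that levels of different genes can be set side by side. Fold changes are differences of mean log2(FPKM + 1), Ras-induced minus control, with the standard error (SE) from limma, and a gene is called altered at a Benjamini-Hochberg adjusted p of 0.05 or less over the 13993 genes whose mean reached 1 FPKM. Relative depth, read from the steps between low values, was 0.841 to 1.16 times that of the first control library. HRAS, whose reads can include those of the construct, was at 1174, 1176 and 1140.3 FPKM in control and 1439, 1847 and 1473 FPKM in Ras-induced libraries. All 8 fibroblast markers and all 8 mitotic markers reached a mean of 1 FPKM. The summed fibroblast markers ran from 4827 to 5428 FPKM in control and from 3160 to 4398 FPKM in Ras-induced libraries, with 3 of the 8 genes altered and lower. The mitotic markers also had 3 of 8 genes lower, with sums of 1502 to 1552 and 1236 to 1371 FPKM. Of the markers of other cell types, KRT5, KRT14 and CLDN4 of 6 epithelial genes, TEK of 6 endothelial genes and CD68 of 6 leukocyte genes reached a mean of 1 FPKM. PECAM1, EMCN and CD3E were listed at 0 in every library, and CDH1, CDH5 and PTPRC were under 0.3 FPKM in each. EPCAM, which was not tested, was at 0.880 to 1.80 FPKM in control and 0.167 to 0.424 FPKM in Ras-induced libraries. The epithelial sums were 22.7 to 36.2 FPKM in control and 21.8 to 25.6 FPKM in Ras-induced libraries, the endothelial sums 14.6 to 16.6 and 4.83 to 5.37 FPKM, and the leukocyte sums 25.4 to 30.9 and 30.6 to 36.1 FPKM. These 3 fibroblast and 3 mitotic markers, and TEK (log2 fold change -1.45, limma adjusted p = 0.00126), were lower in the same libraries as the genes described here as lower. COL1A1 (-1.43, adjusted p = 0.0501) and COL3A1 (-1.25, adjusted p = 0.0553) did not pass. The part of these markers in the differences described here was not tested. In bulk RNA, fewer cells of a type and less RNA per cell cannot be told apart.

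Of the 10 genes, 8 reached a mean of 1 FPKM, in both groups taken alone, and WNT2 and AXIN2 did not and were not tested. Among the 8, WLS was higher and WNT5B, DKK1, DKK3, FZD7 and WISP1 were lower in Ras-induced mitotic cells at the altered threshold, while WNT5A and SFRP1 did not pass it. The background among all tested genes was 16.7% altered, 11.0% altered and higher, and 5.67% altered and lower, with 1543 genes higher and 793 lower. Quantile normalization turned that split to 1044 higher and 1109 lower, and upper-quartile scaling to 921 and 1101. The 6 genes that passed also had groups that did not overlap, as 39.9% of all tested genes had. Since the genes were picked with this contrast in view, nothing is read from these shares. The median log2 fold change was -0.65 over the 8 genes and 0.10 over all tested genes. Quantile normalization moved the latter to 0.01 and under it and upper-quartile scaling each of the 8 genes kept its direction and its side of the threshold. With 1 library left out, 2 to 4 of the 8 passed, and the libraries that decide are named with each gene.

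**Figure D1:**
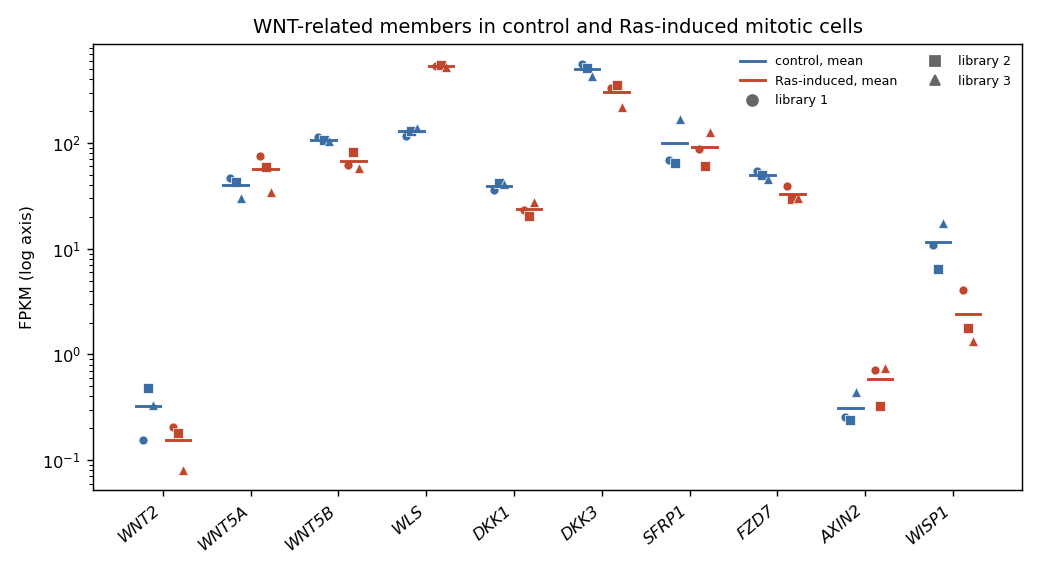
FPKM (log axis) of the 10 genes in each library, with control libraries in blue, Ras-induced libraries in red, a marker shape for each column number and a bar at each group mean. WLS stands well above its controls in Ras-induced libraries, WNT5B, DKK1, DKK3, FZD7 and WISP1 lie below theirs, and the groups of WNT2, WNT5A, SFRP1 and AXIN2 overlap.

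WLS (ENSG00000116729, chr1:68564156-68698803 of GRCh37, minus strand) had the largest change of the 10 genes on the log2(FPKM + 1) scale. It measured 116.3, 130.9 and 139.0 FPKM in control and 533.7, 545.6 and 525.7 FPKM in Ras-induced libraries. The Ras-induced values lay close together and all were far above the controls. The group means were 129 ± 11.5 and 535 ± 10.03 FPKM (SD, n = 3), a ratio of 4.16 and a log2 fold change of 2.05 (SE 0.09), which ranked 247 by size among the 13993 tested genes. With 1 library left out, the log2 fold change ran from 1.98 to 2.11. With a pseudocount of 0.1 it was 2.06, and WISP1 then changed more in size (-2.26). A long noncoding RNA gene on the other strand, GNG12-AS1, overlaps WLS and was listed at 0.368 to 0.736 FPKM in control and 1.46 to 1.90 FPKM in Ras-induced libraries. The library kit does not mark strand, so reads over shared stretches cannot be told apart.

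The other genes of ligand processing and release were taken as a whole list, of which 2 besides WLS could be tested, and both were altered. Over all tested genes 16.7% were altered, and nothing is read from a share of 2 genes. PORCN, the acyltransferase that attaches the lipid to WNT proteins, measured 4.36, 4.49 and 4.56 FPKM in control and 7.39, 8.34 and 10.1 FPKM in Ras-induced libraries. It rose by 0.80 on the log2 scale (SE 0.13; limma, adjusted p = 0.0108). TRABD2A, a membrane protease that cuts and inactivates WNT proteins, was at 17.2, 15.4 and 14.6 FPKM in control and fell to 8.42, 7.80 and 8.54 FPKM, a log2 fold change of -0.85 (SE 0.10, limma adjusted p = 0.00405). The groups did not overlap for either gene. NOTUM, a secreted enzyme that removes the lipid, stayed at or below 0.329 FPKM and was not tested.

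Among the ligands themselves, WNT5B was the most abundant in control mitotic cells. WNT5B (ENSG00000111186, chr12:1639057-1756378 of GRCh37, plus strand) measured 113.1, 106.6 and 104.4 FPKM in control and 61.7, 82.6 and 57.6 FPKM in Ras-induced libraries. All 3 Ras-induced values were lower, with the second library nearest to the controls, and the log2 fold change was -0.69 (SE 0.14). WNT5B kept its call without the second Ras-induced (-0.85) or the third control library (-0.72) and lost it without any of the other 4 (-0.59 to -0.70) and with no filter on low values. FBXL14, on the other strand of the same interval, moved the other way, from 3.64 to 3.98 FPKM in control to 5.06 to 8.19 FPKM in Ras-induced libraries.

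WNT5A (ENSG00000114251, chr3:55499743-55524567 of GRCh37, minus strand), the paralog of WNT5B, measured 46.5, 42.5 and 30.3 FPKM in control and 75.1, 59.2 and 34.3 FPKM in Ras-induced libraries. The third library was the lowest of its group on both sides, and the groups overlapped. The log2 fold change was 0.44 with a standard error of 0.30. Without the third Ras-induced library it was 0.75, and without the first it was 0.20, while without the third control library it was 0.26. The antisense gene WNT5A-AS1, whose reads cannot be told apart from those of WNT5A where they overlap, was at 8.79, 6.79 and 4.56 FPKM in control and 12.2, 8.24 and 4.36 FPKM in Ras-induced libraries, the same order as for WNT5A within each group. WNT5A and WNT5B thus drew nearer to each other: the ratio of WNT5B to WNT5A was 2.43, 2.51 and 3.45 in control and 0.821, 1.40 and 1.68 in Ras-induced libraries, without overlap, and WNT5A exceeded WNT5B in the first Ras-induced library alone.

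WNT2 (ENSG00000105989, chr7:116915505-116963206 of GRCh37, minus strand), a ligand known from lung development, was barely detected. It measured 0.156, 0.479 and 0.332 FPKM in control and 0.206, 0.182 and 0.0803 FPKM in Ras-induced libraries, with overlapping groups. At these levels no difference can be read.

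Of the 19 WNT ligand genes, 4 reached a mean of 1 FPKM, 5 were listed at 0 in every library, and the 2 tested ligands outside the 10 genes were WNT7B and WNT16. WNT7B was at 2.05, 4.08 and 6.86 FPKM in control and at 21.0, 24.6 and 31.1 FPKM in Ras-induced libraries. It rose by a log2 fold change of 2.41 (SE 0.34, limma adjusted p = 0.00768), more than any other gene of the pathway lists. WNT16 measured 2.93 to 7.74 FPKM in control and 4.33 to 5.62 FPKM in Ras-induced libraries, with a log2 fold change of 0.08 (SE 0.29, limma adjusted p = 0.873) whose sign turned under quantile normalization (-0.0021) and upper-quartile scaling (-0.011).

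The summed FPKM of the 19 ligands was 171, 159.7 and 146 in control and 164, 173 and 128 in Ras-induced libraries, so the totals overlapped while their make-up differed. WNT5B made up 66.1%, 66.8% and 71.5% of the total in control and 37.5%, 47.9% and 44.9% in Ras-induced libraries. WNT7B went from 1.19%, 2.55% and 4.70% to 12.7%, 14.2% and 24.3%. The share of WNT5A was 20.7% to 27.1% in control and 26.8% to 45.7% in Ras-induced libraries, which overlap at their edge. WLS, in relation to that total, was at 0.679, 0.820 and 0.953 FPKM per FPKM of ligand in control and at 3.25, 3.16 and 4.10 in Ras-induced libraries. These shares and ratios are built from values of the chosen genes and carry no test.

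**Figure D2:**
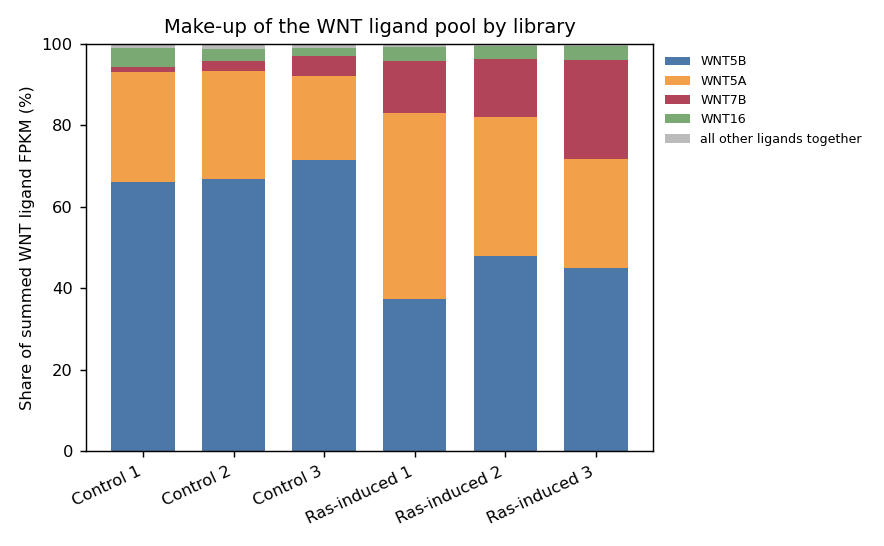
Share of the summed FPKM of all 19 WNT ligand genes (%, linear axis from 0) held by WNT5B, WNT5A, WNT7B, WNT16 and the other ligands together, 1 bar for each library. WNT5B holds 66.1% to 71.5% of the bar in control and 37.5% to 47.9% in Ras-induced libraries, and WNT7B widens from at most 4.70% to at least 12.7%.

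DKK3 (ENSG00000050165, chr11:11977754-12031316 of GRCh37, minus strand) was the most abundant of the 10 genes in control mitotic cells and of the 14 secreted antagonists in every library. It measured 556, 510.4 and 428 FPKM in control and 332, 357 and 219 FPKM in Ras-induced libraries. The groups did not overlap, with the third library the lowest on both sides, and the log2 fold change was -0.74 (SE 0.20). It lay just inside the altered threshold and fell outside it when any 1 of the 6 libraries was left out (-0.52 to -0.87), without a trend in the fit, or with no filter on low values. USP47, which overlaps DKK3 on the other strand, was at 34.8 to 41.7 FPKM in control and 34.5 to 36.3 FPKM in Ras-induced libraries.

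DKK1 (ENSG00000107984, chr10:54074041-54077802 of GRCh37, plus strand) measured 35.8, 42.0 and 40.8 FPKM in control and 23.1, 20.4 and 27.4 FPKM in Ras-induced libraries. Every Ras-induced value was below every control value, and the log2 fold change was -0.72 (SE 0.12). With 1 library left out, the call was lost without the second control library (-0.68) and held without any of the other 5. DKK1 is itself known as a gene that β-catenin and its TCF/LEF partners switch on.

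SFRP1 (ENSG00000104332, chr8:41119481-41166992 of GRCh37, minus strand) measured 68.9, 64.4 and 169.6 FPKM in control and 88.6, 61.1 and 126 FPKM in Ras-induced libraries. The third library was the highest of its group on both sides, the spread within groups (58.9% and 35.5% of the mean) was wide, and the groups overlapped throughout. Its log2 fold change of -0.05 had a standard error of 0.42, and it turned to 0.40 without the third control library and to 0.21 without the second Ras-induced library. The only other antagonist tested, FRZB, was at 0.635 to 1.80 FPKM in control and 1.03 to 1.43 FPKM in Ras-induced libraries (log2 fold change 0.16, limma adjusted p = 0.70). DKK4, SFRP2, SFRP4, SOST and CER1 were listed at 0 in every library.

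The summed FPKM of the antagonists was 662, 618 and 641 in control and 446, 440.4 and 375 in Ras-induced libraries, lower in each Ras-induced library. DKK3 made up 66.8% to 84.0% of the sum in control and 58.4% to 81.0% in Ras-induced libraries. DKK3 exceeded WLS by 4.78, 3.90 and 3.08 times in control libraries. In Ras-induced libraries WLS exceeded DKK3, by 1.61, 1.53 and 2.40 times, so that the most abundant of the 10 genes was DKK3 in each control library and WLS in each Ras-induced one.

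The bases just before the start of transcription are shown for WLS, the gene with the largest rise among the 10, and DKK1, a known TCF/LEF target that was lower. Promoter windows of RefSeq (build GRCh38.p14, 250 bases before to 50 after a start) were matched for 5 of the 10 genes, WLS, WNT2, WNT5A, WNT5B and DKK1, in 8 windows. DKK3, SFRP1, FZD7, AXIN2 and WISP1 had no entry. Each window was searched on both strands for CTTTGA (the core read by TCF and LEF factors), TGANTCA (read by AP-1, a factor downstream of Ras) and TATAAA (the TATA box), motifs chosen with the expression values known. The 160 bases before the start are printed 5′ to 3′ on the gene's strand, with matches in capitals, for DKK1 from chr10:52314121-52314280 (plus strand) and for WLS from chr1:68232524-68232683 (minus strand, the first of 2 listed starts).
DKK1: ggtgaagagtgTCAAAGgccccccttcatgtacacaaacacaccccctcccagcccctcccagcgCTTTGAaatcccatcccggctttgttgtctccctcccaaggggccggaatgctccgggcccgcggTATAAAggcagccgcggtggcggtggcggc
WLS: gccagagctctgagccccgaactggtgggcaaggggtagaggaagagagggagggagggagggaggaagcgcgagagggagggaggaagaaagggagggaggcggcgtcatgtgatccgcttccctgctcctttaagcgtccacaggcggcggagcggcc

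The DKK1 window held CTTTGA at 2 places, 149 to 144 bases before the start on the minus strand and 95 to 90 bases before it on the plus strand, and TATAAA 30 to 25 bases before the start. No other window of the 5 genes held CTTTGA, which 12.9% of the 35116 windows of the table hold. TATAAA, held by 11.5% of windows, was also in 1 WNT5B window, and TGANTCA, held by 7.71%, was in none of the 8. The WLS windows had none of these motifs. A match is a stretch of letters and no measured binding site.

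FZD7 (ENSG00000155760, chr2:202898578-202903164 of GRCh37, plus strand), one of the main Frizzled receptors of these cells, measured 54.6, 49.4 and 46.1 FPKM in control and 38.9, 29.5 and 30.2 FPKM in Ras-induced libraries. The groups did not overlap, and the log2 fold change was -0.60 (SE 0.13). FZD7 kept its call without the first Ras-induced (-0.73) or the third control library (-0.66) and lost it without any of the other 4 (-0.53 to -0.61) and with no filter on low values. Of the 15 other receptors and co-receptors in the list, 9 were tested and 3 were altered, 2 higher and 1 lower. The share was 33.3%, against 16.7% of all tested genes, and nothing is read from so few genes. The median log2 fold change over the 9 was 0.04, against 0.10 over all tested genes.

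The altered receptors were all Frizzled genes. FZD2 fell from 32.4, 35.2 and 43.1 FPKM to 19.3, 17.5 and 16.9 FPKM, a log2 fold change of -0.997 (SE 0.12, limma adjusted p = 0.0051). FZD8 rose from 8.16, 6.06 and 8.55 FPKM to 26.5, 25.5 and 41.6 FPKM, with 1.88 (SE 0.21, limma adjusted p = 0.00409). FZD1 rose from 9.49, 10.1 and 12.2 FPKM to 32.4, 20.2 and 34.8 FPKM, with 1.34 (SE 0.21, limma adjusted p = 0.0105). None of these 3 genes overlapped between groups.

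FZD6, the receptor outside the 10 genes with the highest mean over all 6 libraries, though below RYK in each Ras-induced library, measured 42.1 to 59.9 FPKM in control and 37.4 to 43.0 FPKM in Ras-induced libraries (log2 fold change -0.32 with SE 0.14, limma adjusted p = 0.161, and 0.0435 with -0.45 when the third control library was left out). FZD4 was higher in each Ras-induced library, at 1.96 to 3.14 against 1.03 to 1.65 FPKM, but did not pass the threshold (limma adjusted p = 0.0831). The summed FPKM of the 10 Frizzled genes was 167, 155 and 154 in control and 164, 137 and 164 in Ras-induced libraries. FZD2 and FZD7 together held 52.2%, 54.6% and 58.0% of that sum in control and 35.4%, 34.2% and 28.7% in Ras-induced libraries. FZD1 and FZD8 together went from 10.6%, 10.5% and 13.5% to 35.8%, 33.2% and 46.7%. Each pair joins genes that moved the same way, so the opposite shares follow from the grouping and carry no test. The co-receptors LRP5 and LRP6 and the receptors RYK and PTK7 were tested and did not pass. ROR1 and ROR2, known receptors of WNT5A, did not reach a mean of 1 FPKM over the 6 libraries. ROR1 measured 1.02 to 1.48 FPKM in control and 0.356 to 0.674 FPKM in Ras-induced libraries. For LRP5, PTK7, ROR1 and ROR2 every Ras-induced value was below every control value.

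**Figure D3:**
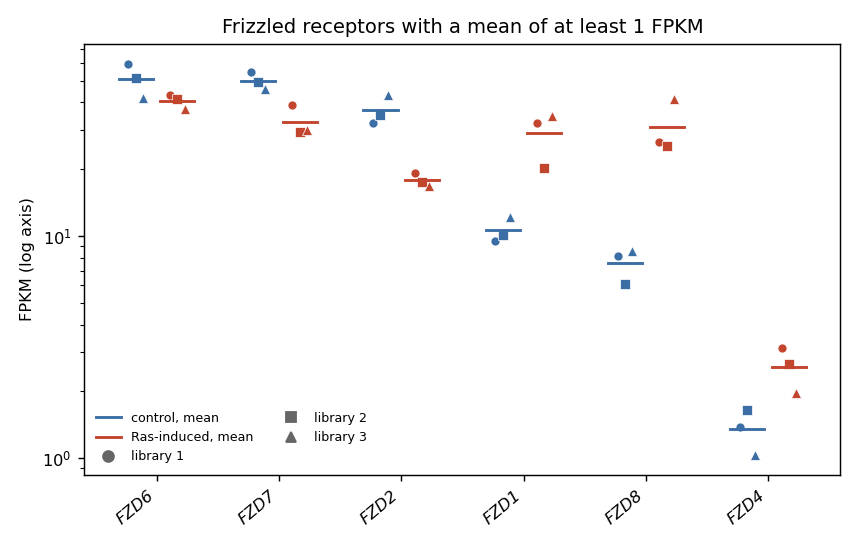
FPKM (log axis) of the Frizzled receptors with a mean of at least 1 FPKM in each library, control in blue and Ras-induced in red, with bars at the group means and a marker shape for each column number. FZD2 and FZD7 lie lower and FZD1 and FZD8 higher in all 3 Ras-induced libraries, which brings FZD8 from 7.59 to 31.2 FPKM on average, near FZD7 at 32.8 FPKM.

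AXIN2 (ENSG00000168646, chr17:63524681-63557766 of GRCh37, minus strand) stayed under 1 FPKM in all libraries. It measured 0.256, 0.241 and 0.445 FPKM in control and 0.706, 0.326 and 0.742 FPKM in Ras-induced libraries. The second Ras-induced library fell among the controls, and the gene was not tested. Of the 12 other feedback and target genes listed, 5 were tested and 3 were altered, 2 higher and 1 lower. The share was 60%, against 16.7% of all tested genes, and nothing is read from so few genes. LEF1, a DNA-binding partner of β-catenin, rose from 2.51, 1.56 and 1.24 FPKM to 5.99, 4.77 and 3.84 FPKM (log2 fold change 1.09 with SE 0.22, limma adjusted p = 0.022). It missed the threshold with no filter on low values (0.0664) and without the first Ras-induced, the second Ras-induced or the second control library (0.0598 to 0.0719). TNFRSF19, a receptor of the TNF family, went from 19.6, 22.4 and 32.0 FPKM to 36.3, 39.0 and 46.7 FPKM, with 0.72 (SE 0.19, limma adjusted p = 0.0469). This call was lost under quantile normalization and upper-quartile scaling (0.0978 and 0.097), without a trend in the fit (0.0627), with no filter on low values (0.114) and with any library but the third control left out (0.0842 to 0.136).

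APCDD1, a membrane protein that inhibits WNT signalling, fell from 15.5, 15.3 and 9.93 FPKM to 1.94, 3.38 and 2.15 FPKM, a log2 fold change of -2.06 (SE 0.22, limma adjusted p = 0.00378). It was the largest fall among the tested genes of the pathway lists. In the list of R-spondins and receptor turnover it was the only altered gene of 4 tested (25%, against 16.7% of all tested genes). CCND1, which encodes cyclin D1, was at 264 to 294 FPKM in control and 248 to 292 FPKM in Ras-induced libraries, with overlapping groups (log2 fold change -0.07 with SE 0.09, limma adjusted p = 0.630). LGR5 and SP5, commonly used as readouts of β-catenin signalling in other tissues, were listed at 0 in every library.

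WISP1 (ENSG00000104415, chr8:134203282-134243933 of GRCh37, plus strand), also called CCN4, encodes a secreted matrix protein of the CCN family. It measured 10.8, 6.38 and 17.4 FPKM in control and 4.06, 1.78 and 1.33 FPKM in Ras-induced libraries. The groups did not overlap although the values varied widely within each (48.2% and 61.2% of the mean), and the control mean was 4.81 times the Ras-induced mean. The log2 fold change was -1.87 with a standard error of 0.41, the largest fall among the 10 genes. Its call held without the first Ras-induced or the second control library (both -2.20) and was lost without any of the other 4 (-1.54 to -1.86), as it was with no filter on low values. In the rest of the CCN family 3 genes were tested and 1 was altered (33.3%, against 16.7% of all tested genes). CYR61 (CCN1), a secreted protein of adhesion and growth control, fell from 200.2, 172 and 209 FPKM to 79.7, 67.4 and 75.6 FPKM (log2 fold change -1.37 with SE 0.11, limma adjusted p = 0.00186). CTGF (CCN2) measured 8.99 to 16.7 FPKM in control and 7.17 to 23.1 FPKM in Ras-induced libraries and did not pass.

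Of 13 tested genes of the cytoplasmic relay and the destruction complex outside the 10 genes, 2 were altered, both higher. That is 15.4%, near the 16.7% of all tested genes. CSNK1E, a kinase that acts on Dishevelled, rose from 87.9 to 96.5 FPKM in control to 119 to 136 FPKM in Ras-induced libraries (log2 fold change 0.43 with SE 0.08, limma adjusted p = 0.0182). It missed the threshold without the third Ras-induced, the first control or the second control library (0.0533 to 0.0617). GSK3A, a kinase of the destruction complex, went from 30.0 to 37.3 FPKM to 43.9 to 47.7 FPKM, with 0.40 (SE 0.10, limma adjusted p = 0.0425). This call was lost under quantile normalization and upper-quartile scaling (0.0797 and 0.0785), without a trend in the fit (0.0626), with no filter on low values (0.0793) and with any 1 library left out (0.0541 to 0.119). Their most abundant neighbour CSNK1A1 did not pass (limma adjusted p = 0.287), nor did CTNNB1, the gene of β-catenin, at 109 to 129 FPKM in control and 109 to 126 FPKM in Ras-induced libraries.

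Of 12 tested nuclear effectors 2 were altered, or 16.7%, the same share as over all tested genes. LEF1 was higher, as above, and TCF7L1, a relative of LEF1 that mostly represses its targets, fell from 6.999, 6.997 and 4.89 FPKM to 3.26, 2.31 and 2.54 FPKM (log2 fold change -0.97 with SE 0.17, limma adjusted p = 0.0153). TCF7L1 missed the threshold without any 1 of the same 3 libraries as CSNK1E (0.0557 to 0.0586). CTNNBIP1, an inhibitor of the β-catenin and TCF contact and the most abundant gene of this list, did not pass (limma adjusted p = 0.193). Of 4 tested planar polarity genes 1 was altered (25%). VANGL1, a membrane protein of that pathway, fell from 24.5 to 25.7 FPKM to 12.9 to 16.4 FPKM. Its log2 fold change was -0.73 (SE 0.10, limma adjusted p = 0.00757).

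Over all pathway lists, 52 of the 106 genes outside the 10 were tested and 14 were altered, 8 higher and 6 lower, or 26.9% against the 16.7% of all tested genes. The lists were drawn up as whole families, but with earlier results of these data known, so nothing is read from this share and the p-values of their genes are not independent evidence. Their median log2 fold change was 0.17, against 0.10. Quantile normalization and upper-quartile scaling each gave 6 higher and 7 lower. GSK3A and TNFRSF19 passed under neither. GSK3A, TNFRSF19, LEF1, CSNK1E and TCF7L1 kept their direction in each alternative fit that included them. LEF1 and TCF7L1 were not in the fit with a minimum of 5 FPKM.

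**Figure D4:**
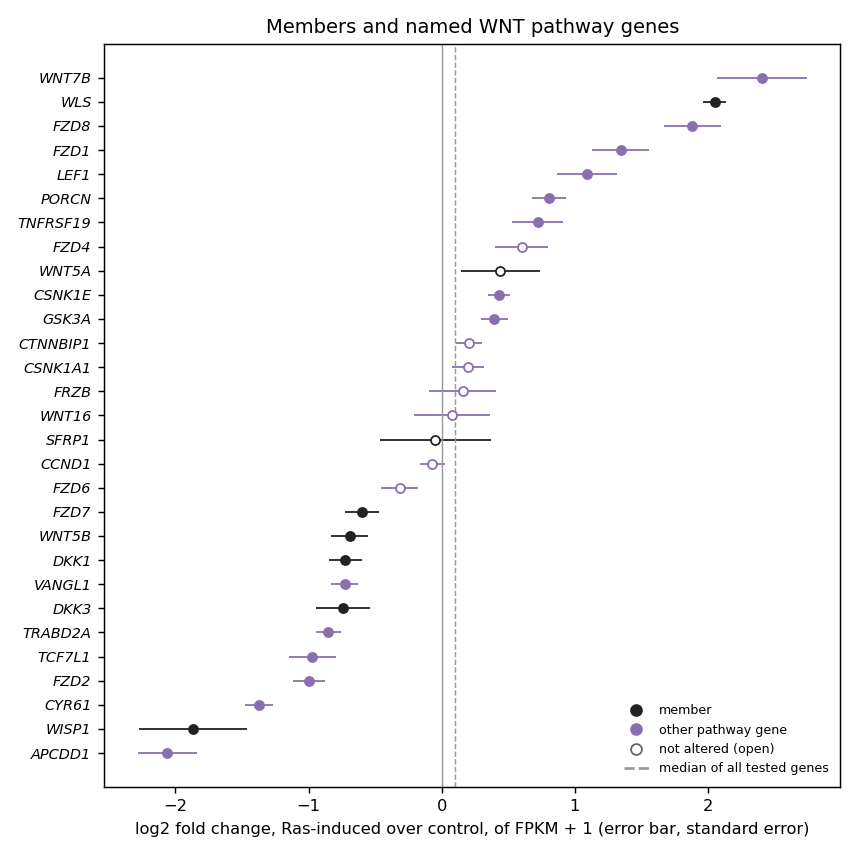
Differences of mean log2(FPKM + 1), Ras-induced minus control, for the 8 tested genes of the 10 (black) and the named genes of the pathway lists (purple), with bars for the standard error, filled points for altered genes, a solid line at 0 and a broken line at the median of all tested genes. WNT7B (2.41) and WLS (2.05) stand highest, and WISP1 (-1.87) and APCDD1 (-2.06) lowest.

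On the FPKM scale the order of the 10 genes in control mitotic cells ran from DKK3 (498 FPKM on average) through WLS (129), WNT5B (108), SFRP1 (101), FZD7 (50.1), WNT5A (39.7), DKK1 (39.6) and WISP1 (11.5) to WNT2 and AXIN2. Neighbours whose ranges overlapped were WNT5B and SFRP1, FZD7 and WNT5A, WNT5A and DKK1, and WNT2 and AXIN2. In Ras-induced mitotic cells WLS (535) came before DKK3 (303), followed by SFRP1 (92.0), WNT5B (67.3), WNT5A (56.2), FZD7 (32.8), DKK1 (23.7), WISP1 (2.39), AXIN2 (0.591) and WNT2 (0.156), and the ranges of SFRP1, WNT5B and WNT5A each overlapped that of the gene after it.

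The genes whose log2(FPKM + 1) followed that of DKK3 most closely over the 6 libraries were CREB3L1 (Pearson r 0.9965), SMAD4 (0.9945) and ITGA1 (0.9908), with log2 fold changes of -0.84, -0.19 and -1.44. Those nearest to WLS were POLR1C (0.9986), DIRC3 (0.9984) and GLMN (0.9982), with log2 fold changes of 0.58, 0.70 and 0.69. With 6 points in 2 groups such values can come from the group difference, from the spread within groups or from both, which were not separated. Of all tested genes, 653 exceeded 0.95 with WLS and 118 with DKK3. These correlations are a description of these libraries only.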

How the data were processed

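RNA-seq of poly(A) RNA was analysed from 6 libraries of mitotic ERRAS cells. Reads were trimmed (Trim Galore 0.3.0, per the submitters' processing notes) and aligned to hg19 with Tophat2 and Ensembl splice junctions, and the authors calculated FPKM per gene with Cufflinks. The FPKM table was deposited with columns that name a group and a number but no sample, and were taken as replicates within that group. Its 18 unnamed columns, filled for 120 genes with extra values, were not used, nor were those genes, TNKS among them. A deposited cuffdiff table gives an FPKM per group, used as the authors' value in an alternative, and the authors' fold changes, test statistics, p-values and q-values, which were not used.

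Genes whose mean reached 1 FPKM were fitted on log2(FPKM + 1) with limma 3.58.1 (R 4.3.3; lmFit, eBayes with a trend), two-sided, Benjamini-Hochberg over 13993 genes. The code was tested on simulated data. Low values are understated on this scale. FPKM is no count, so no count model was run, and read depth is known only relatively. The study describes independent repeats, but the labels name no separate cultures, so p-values measure the spread between these libraries. The cells' inducing dose is that of the labels. The study's methods give the same figure in ng/ml.

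Members and lists were chosen with earlier results of these data known. Named are all 10 members, up to 4 altered genes with the largest change and the most abundant gene of each pathway list, every ligand, Frizzled receptor and antagonist with a mean of at least 1 FPKM, and the 3 genes most like the most abundant and the most changed member. Genes named at 0 or as not passing beyond that rule were added after their values were seen. Where a symbol repeated, the row with the highest mean was used. Positions are from GENCODE as lifted to GRCh37, the build of hg19, and promoter windows from RefSeq in GRCh38.p14. Python 3.11.15 made the tables and figures. Alternatives were quantile and upper-quartile scaling, a pseudocount of 0.1, no filter or a minimum of 5 FPKM, no trend, a replicate block, a minimum absolute log2 fold change of 1, each library left out and, added after seeing the data, the authors' group values.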

Additional observations from a re-analysis of the deposited data

How the results depend on the processing

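The count of altered genes among the 10 members (6) was 6 under either scaling, a pseudocount of 0.1, a minimum of 5 FPKM and the replicate block, and 5 without a trend, where DKK3 was lost. It was 2 without a filter on low values (WLS and DKK1), where 1518 genes were altered over the whole table. It was also 2, but WLS and WISP1, when the log2 fold change also had to reach 1 in size (548 over the whole table). With 1 library left out, 2 to 4 members and 998 to 1956 genes were altered: 4 members without the first Ras-induced or the third control library, 3 without the second Ras-induced, and 2 without the third Ras-induced, the first control or the second control library. Such fits have fewer samples. Of the other pathway genes, 6 were altered under that size limit, and 10 to 14 with 1 library left out.

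Signs turned for SFRP1 without the second Ras-induced (0.21) or the third control library (0.40), for FRZB without the second control library (-0.0019), and for WNT16 under quantile normalization (-0.0021), upper-quartile scaling (-0.011) and without the third control library (-0.20). With each library left out in turn, SFRP1 ran from -0.30 to 0.40, FRZB from -0.0019 to 0.385 and WNT16 from -0.20 to 0.38, and the cause was not tested. None of these genes was altered in any of these fits. Upper-quartile scaling split all altered genes into 921 higher and 1101 lower, quantile normalization into 1044 and 1109, against 1543 and 793 in the deposited values. The authors' group FPKM gave each tested member the same direction.

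Column numbers were shared between groups, but deviations of same-numbered libraries correlated at only -0.003, 0.043 and 0.048 over 13993 genes. Those of differently numbered libraries correlated at -0.068 to 0.031. The numbers were therefore not taken to pair the libraries. Taken by number, WNT5A was higher in each Ras-induced library than in its control, yet it did not pass with the replicate block. With the replicate block 2310 genes and 15 other pathway genes were altered. Without read counts, precision at low FPKM is not known, which limits WNT2 and AXIN2 most.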
